A study of Homo sapiens with 15 samples.

Results

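The response to knockdown of RNF5 (RNF5-KD) was compared between MOLM-13 and U937 cells. For each gene, the log2 fold change of shRNF5 over pLKO in U937 was subtracted from that in MOLM-13, so a positive difference means a response that was higher in MOLM-13. All genes above 0 in at least 1 library of MOLM-13 and at least 1 library of U937 entered, which gave 11791 of the 57820 gene identifiers in the files. Another 1235 genes were above 0 in MOLM-13 only and 1374 in U937 only, and these were not tested. MOLM-13 and U937 are human myeloid lines of monocytic character that grow in suspension, MOLM-13 from acute myeloid leukemia (AML) with a KMT2A fusion and U937 with a PICALM fusion, and the labels give both as AML cell lines. The pLKO cells carried the vector without a hairpin and the shRNF5 cells a short hairpin RNA against RNF5. The study's text does not name the hairpin that was sequenced. MOLM-13 had 3 pLKO and 2 shRNF5 libraries, and U937 had 2 pLKO and 2 shRNF5 libraries. The labels number the U937 libraries as replicates 2 and 3 for pLKO and 1 and 3 for shRNF5. They do not say whether replicates were separate cultures, so p-values measure the spread between these libraries, which may be technical. The labels place the harvest at 7 days after knockdown in 1 place and at 5 days in another.

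RNF5 is a ubiquitin ligase anchored in the membrane of the endoplasmic reticulum (ER), where it takes part in the disposal of misfolded proteins. The study linked it in AML to the histone-binding protein RBBP4 and to the sensitivity of the cells to inhibitors of histone deacetylases. Cells of the monocytic lineage can leave the cell cycle and take up markers of mature monocytes, and genes for DNA synthesis, granule proteins and surface receptors are known to move with that change. Those genes were therefore examined as groups, together with lipid synthesis, the proteasome, stress responses and chromatin.

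The values are normalized read counts that the authors scaled in each line separately and rounded, so a level in MOLM-13 and a level in U937 are not on one scale and only changes within a line were compared. By the spacing of the rounded values, between 9700000 and 63800000 reads were counted per library, the highest in shRNF5 replicate 1 of MOLM-13. The pLKO libraries of U937 were unlike each other. On the log2 scale their values correlated across genes at a Pearson r of 0.954, while pLKO replicate 3 and shRNF5 replicate 3 reached 0.962. The lowest r within MOLM-13 was 0.963, between pLKO replicate 1 and each shRNF5 library. RN7SK, an abundant small nuclear RNA without a poly(A) tail, had values of 171 and 48 in the U937 pLKO libraries and of 5 and 6 in the shRNF5 libraries, and its part in the results was not tested. All 6 myeloid markers (SPI1, CD33, CSF3R, CEBPA, MPO and LYZ) were above 0 in both lines. Of the markers of other lineages, 1 of 6 B cell markers (PAX5) was above 0 in both lines, and none of the T cell, erythroid or epithelial markers was.

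RNF5 fell in both lines. Its normalized read count in the MOLM-13 pLKO libraries was 1223, 1017 and 1020, and in the shRNF5 libraries it was 76 and 81. In U937 it was 648 and 843 with pLKO and 46 and 74 with shRNF5. No shRNF5 library of either line overlapped the pLKO libraries. The log2 fold change of RNF5 in MOLM-13 was -3.77 ± 0.25 (SE, limma adjusted p = 0.000135). In U937 it was -3.64 ± 0.28 (limma adjusted p = 0.000513). The difference between the lines was -0.13 ± 0.38 (limma adjusted p = 0.866), and its 95% confidence interval reached from -0.96 to 0.70.

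A gene was called when its limma p-value, adjusted by Benjamini-Hochberg over all 11791 genes, was under 0.1 and its absolute log2 value over 0.4. The response differed between the lines for 501 genes (4.25%), of which 284 (2.41%) were higher in MOLM-13 and 217 (1.84%) lower. Within the lines, 81 genes (0.687%) were called within MOLM-13 and 3330 (28.2%) within U937, 1701 up (14.4%) and 1629 down (13.8%). The median absolute log2 fold change over all genes was 0.23 in MOLM-13 and 0.43 in U937, with median SEs of 0.23 and 0.26. This order was not kept under every setting. Library weights gave 2112 calls in MOLM-13 and 1682 in U937, and a replicate block within both lines gave 701 and 260. Of the 501 genes, 465 were called in U937 alone, 199 that rose and 266 that fell. Another 10 genes were called in MOLM-13 alone, 5 up and 5 down. In 2 genes both lines were called with opposite signs, in 1 gene both were called with the same sign, and in 23 genes neither line was called by itself. For comparison, 43 genes were called in both lines, whether or not the responses differed, and 41 of them moved the same way.

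**Figure D1:**
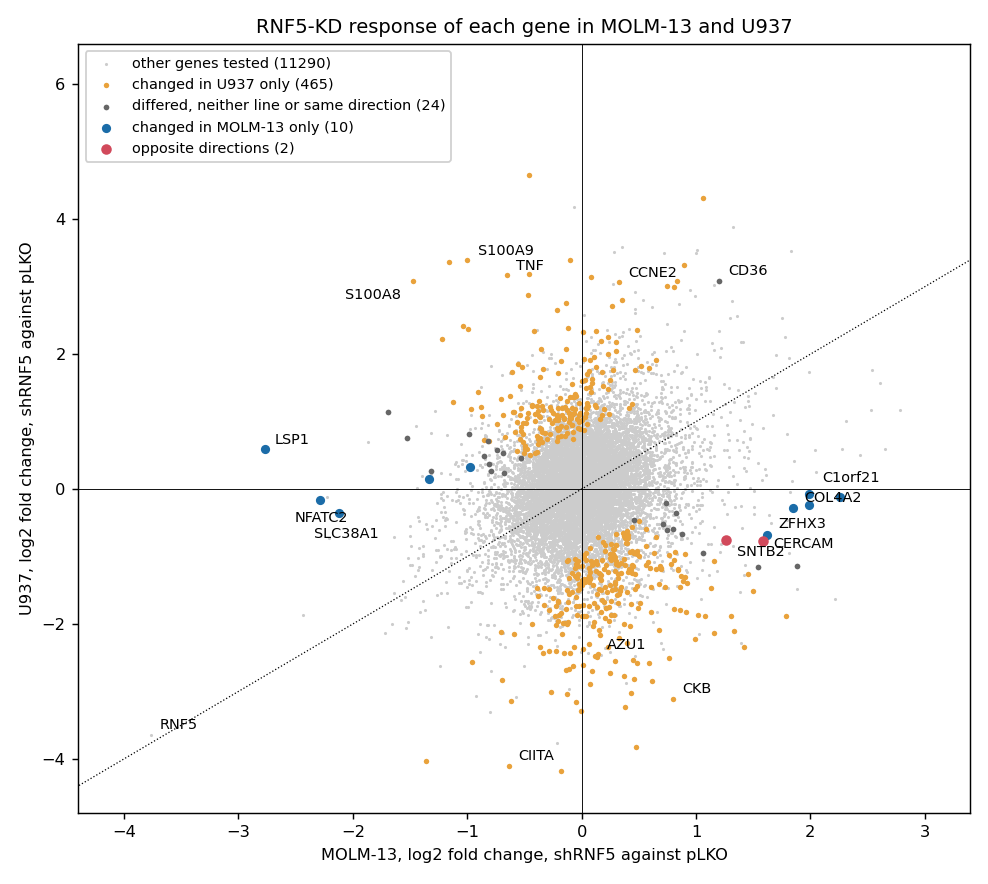
Each point is 1 of the 11791 genes tested, with its log2 fold change of shRNF5 over pLKO in MOLM-13 on the horizontal axis and in U937 on the vertical axis. Colours mark how the 501 genes with a different response were called in each line, and the dotted line marks equal responses. Most coloured points lie near 0 on the MOLM-13 axis, the 10 genes called in MOLM-13 alone lie far out on that axis, and RNF5 lies close to the dotted line.

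How many genes passed depended on single libraries. Leaving out pLKO replicate 3 of U937 gave 2930 genes, and leaving out the other U937 control, pLKO replicate 2, gave 25. With either shRNF5 library of MOLM-13 left out, 3 or 2 genes passed, and without shRNF5 replicate 1 of U937 it was 2. Without shRNF5 replicate 3 of U937 676 genes passed. The MOLM-13 pLKO libraries moved the number to 881, 28 and 227 when replicates 1, 2 and 3 were left out in turn. At an adjusted p-value under 0.05, 19 genes remained. All 501 genes kept the sign of their difference in each of these 9 fits. They were chosen for that difference, and each fit shares all but 1 library with the choice, so this supports nothing further. S100A9 and CXorf21 were called in all 9, 14 genes in at least 6 and 185 in at least 4. CXorf21 codes for a lysosomal adaptor of Toll-like receptor signalling and was picked out after its values had been seen. Its value in MOLM-13 was 2185, 2018 and 1491 with pLKO and 2361 and 2769 with shRNF5, against 1333 and 1125 falling to 229 and 193 in U937.

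**Figure D2:**
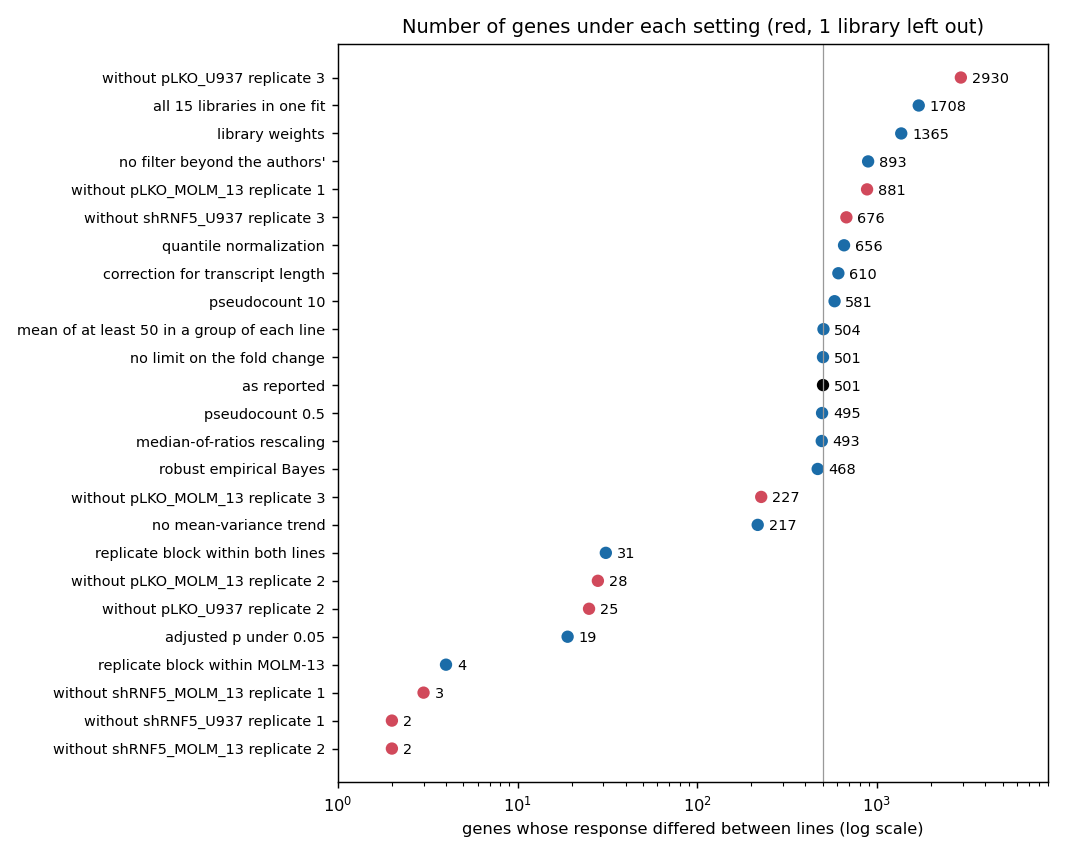
The number of genes with a different response in the 2 lines appears on a log axis for the fit as reported (501, black), for the fits that leave out 1 library (red) and for other settings (blue). The numbers lie between 2 and 2930.

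CERCAM and SNTB2 responded in opposite directions by the strictest reading, rising in MOLM-13 and falling in U937. No gene was called in the reverse order in this fit. In the fit with HL-60 6 were (GAPT, KCNK5, ENC1, LST1, LMNB1 and PBK), beside 6 that rose in MOLM-13 and fell in U937. SNTB2 was among these last 6 and CERCAM was not. Library weights gave 28 genes in the reverse order, beside 43. CERCAM, a protein of endothelial cell surfaces named as a cerebral cell adhesion molecule, had values of 70, 63 and 82 with pLKO and 234 and 199 with shRNF5 in MOLM-13. In U937 its values were 2788 and 1839 with pLKO and 1559 and 1126 with shRNF5. The libraries did not overlap in either line. The log2 fold changes were 1.58 ± 0.25 and -0.77 ± 0.28, and the difference was 2.36 ± 0.37 (limma adjusted p = 0.0377). SNTB2, a syntrophin that ties membrane proteins to the dystrophin complex, went from 403, 596 and 697 to 1357 and 1296 in MOLM-13. Over the same contrast it went from 2168 and 1393 to 918 and 1156 in U937. Its libraries did not overlap either. The difference was 2.02 ± 0.39 (limma adjusted p = 0.0590). At an adjusted p-value under 0.05 no gene was called in opposite directions. When each library was left out in turn, the difference was called in 5 of 9 fits for CERCAM and in 4 of 9 for SNTB2, with differences from 2.06 to 2.66 for CERCAM and from 1.70 to 2.34 for SNTB2, and these fits held from 0 to 21 genes of opposite direction.

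A wider reading asked only that the difference was called and that the fold changes had opposite signs and were over 0.4 in both lines. This held for 153 of the 501 genes, 90 up in MOLM-13 with U937 down and 63 in the reverse order, beside 567 (4.81%) of all genes tested that had such a pair of fold changes, 334 (2.83%) and 233 (1.98%) in the respective orders. In 130 of the 153 genes the libraries did not overlap in either line. Choosing genes by their difference and fold changes favours such separation, and the share over all genes was not counted, so this is no added support. Of all 501 genes, 373 (74.5%) had fold changes of opposite sign, beside 43.5% of all genes tested. Opposite signs add to the difference by construction, so this share describes the genes called and supports nothing further. The examples that follow were picked out after their values had been seen. TREML2, a receptor of the TREM family, had 127, 110 and 184 with pLKO and 55 and 80 with shRNF5 in MOLM-13. In U937 TREML2 had 79 and 29 with pLKO and 418 and 164 with shRNF5. CHST2, a sulfotransferase of cell surface sugars, went from 473, 286 and 295 to 119 and 206 in MOLM-13 and from 178 and 145 to 498 and 311 in U937. The fatty acid binding protein FABP5 went from 701, 592 and 336 to 287 and 244, and from 365 and 709 to 1354 and 997. In the reverse order, TSC22D3, a leucine zipper protein that glucocorticoids induce, had 179, 293 and 602 with pLKO and 663 and 676 with shRNF5 in MOLM-13. TSC22D3 had 4315 and 2032 with pLKO and 537 and 1190 with shRNF5 in U937. HSPG2, the basement membrane proteoglycan perlecan, went from 332, 228 and 320 to 408 and 390 and from 1540 and 340 to 153 and 68. The U937 pLKO libraries of TREML2 and HSPG2 lay far apart, with replicate 2 the higher in both. Without that library the wider reading held for 12 genes, and without pLKO replicate 3 for 588.

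**Figure D3:**
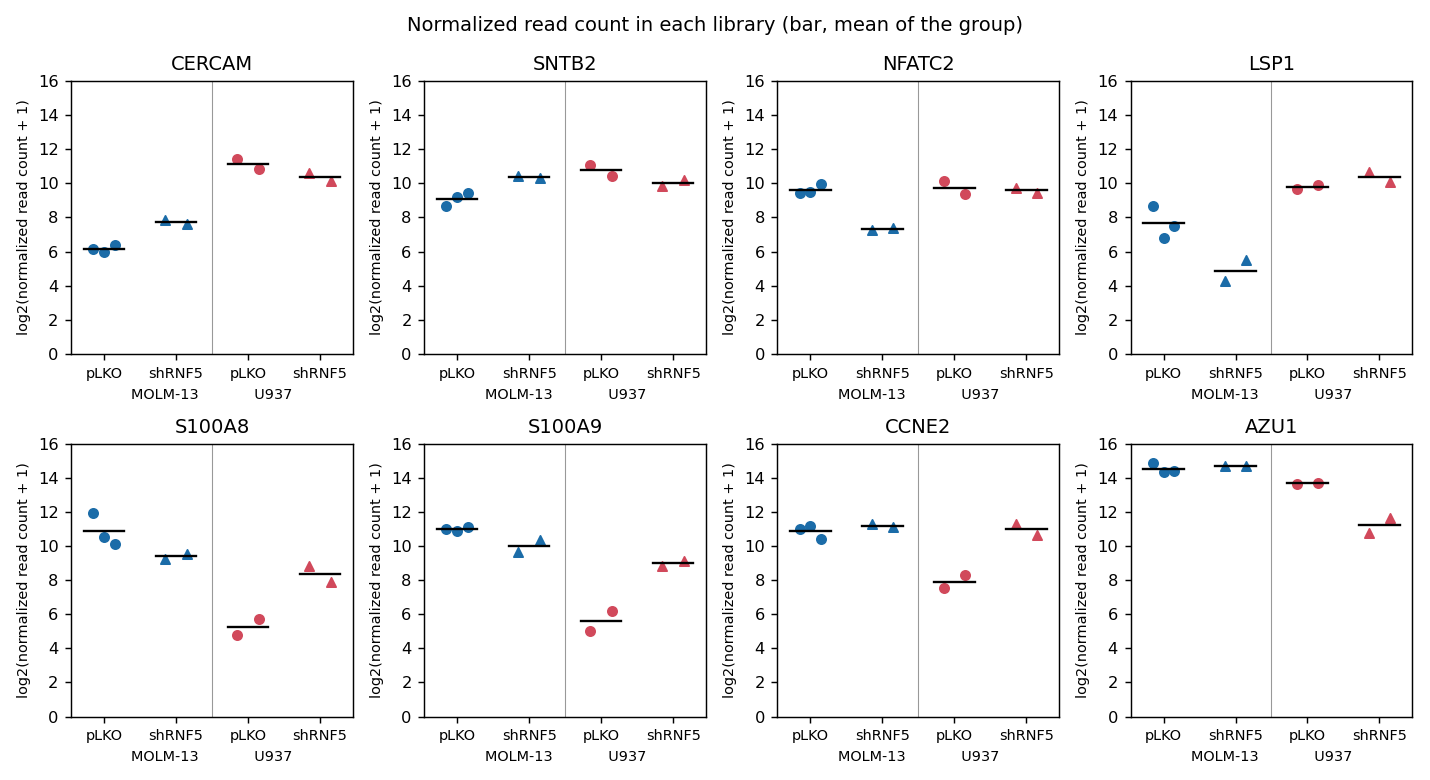
Each panel shows 1 gene, with log2(normalized read count + 1) on the vertical axis and 1 point per library, circles for pLKO and triangles for shRNF5, and a bar at the mean of each group. CERCAM and SNTB2 rise in MOLM-13 and fall in U937, NFATC2 and LSP1 fall in MOLM-13, S100A8 and S100A9 lie lower with shRNF5 in MOLM-13 and higher in U937, CCNE2 rises in U937 and AZU1 falls in U937. Levels are not on one scale across the lines.

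Genes called in MOLM-13 only were few. LSP1, an actin-binding phosphoprotein of leukocytes, had values of 410, 110 and 177 with pLKO and of 18 and 45 with shRNF5 in MOLM-13. In U937 LSP1 had 828 and 942 with pLKO and 1623 and 1093 with shRNF5. The libraries did not overlap in either line, and they lay in opposite orders. The difference was -3.36 ± 0.74 (limma adjusted p = 0.0695). NFATC2, a transcription factor controlled by calcineurin, fell from 693, 729 and 999 to 155 and 169 in MOLM-13. Its U937 libraries overlapped, with 1111 and 666 against 843 and 699. The difference for NFATC2 was -2.13 ± 0.38 (limma adjusted p = 0.0590). SLC38A1, a glutamine transporter, fell from 6089, 9094 and 11259 to 2230 and 1727. In U937 SLC38A1 went from 3279 and 2727 to 2433 and 2264, a log2 fold change of -0.35 that was not called. DTX4, a ubiquitin ligase of the Deltex family, fell from 1301, 706 and 881 to 335 and 409, beside 107 and 88 against 112 and 103 in U937. H2AFX, the histone H2A variant that is phosphorylated at DNA breaks, fell from 1972, 1722 and 1493 to 800 and 949, beside 1548 and 2043 against 2343 and 2130 in U937.

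Genes that rose in MOLM-13 only came from several families. C1orf21 rose from 8, 10 and 13 to 51 and 54, a log2 fold change of 2.26 ± 0.30, while its U937 libraries overlapped at 835 and 818 against 636 and 920. ZFHX3, a homeobox and zinc finger transcription factor, rose from 36, 49 and 23 to 107 and 109, beside 1638 and 1088 against 810 and 849 in U937, where the log2 fold change of -0.69 was not called. COL4A2, a chain of basement membrane collagen, rose from 106, 127 and 115 to 388 and 454, beside 1123 and 1500 against 818 and 1401. SEMA6A, a membrane-bound semaphorin, rose from 150, 144 and 297 to 609 and 895, beside 117 and 108 against 135 and 85. The differences were 2.37 ± 0.45 for C1orf21, 2.31 ± 0.47 for ZFHX3, 2.13 ± 0.38 for COL4A2 and 2.05 ± 0.53 for SEMA6A. With either shRNF5 library of MOLM-13 left out, no gene was called in MOLM-13 only, and without pLKO replicate 3 of U937 there were 73.

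Among the 465 genes called in U937 only, the log2 fold change in MOLM-13 was within 0.4 for 313, over 0.4 in the opposite direction for 132 and over 0.4 in the same direction for 20. The genes that the naming rule gave for a rise in U937 include calprotectin and a cytokine. S100A8 and S100A9 form calprotectin, a calcium-binding complex of neutrophils and monocytes. S100A8 had 27 and 52 with pLKO and 454 and 234 with shRNF5 in U937, and 3889, 1453 and 1135 with pLKO and 595 and 754 with shRNF5 in MOLM-13. S100A9 had 31 and 71 with pLKO and 458 and 557 with shRNF5 in U937, and 2014, 1910 and 2239 against 803 and 1303 in MOLM-13. For both genes the libraries of each line were apart and in opposite orders, although the MOLM-13 change was not called (limma adjusted p = 0.255 for S100A8 and 0.245 for S100A9). GPR84, a receptor for medium-chain fatty acids, had the same order, with 7 and 17 rising to 139 and 109 in U937 and 129, 105 and 225 against 59 and 70 in MOLM-13. TNF, the inflammatory cytokine, rose from 18 and 16 to 229 and 113 in U937. In MOLM-13 TNF overlapped at 2943, 1298 and 2303 against 1155 and 1499.

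The 5 with the highest difference by the same rule fell in U937. CIITA, the master activator of MHC class II genes, fell from 126 and 73 to 3 and 7, beside 418, 129 and 197 against 111 and 180 in MOLM-13. CKB, the brain creatine kinase, fell from 403 and 165 to 19 and 44, beside 165, 80 and 159 against 137 and 365. SRGAP3, a GTPase-activating protein of the Slit and Robo pathway, fell from 440 and 133 to 22 and 28, beside 38, 34 and 54 against 52 and 56. SAMD11 fell from 79 and 44 to 6 and 9, and its MOLM-13 libraries lay the other way, with 160, 183 and 126 below 238 and 237. BTBD11 fell from 148 and 49 to 29 and 12, beside 34, 95 and 44 against 139 and 100. In all of these but SAMD11 and BTBD11 the MOLM-13 libraries overlapped. The differences ran from 3.29 ± 0.86 for BTBD11 to 3.91 ± 0.81 for CKB. For SRGAP3 pLKO replicate 2 held the higher U937 control value, and its difference was 3.62 with that library and 2.76 without it. In bulk RNA, fewer cells of a kind and less RNA per cell cannot be told apart for any of these genes.

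Genes for DNA replication stood lower in MOLM-13 and higher in U937. They copy the genome in S phase, with the origin helicase, polymerases, clamp and nucleotide supply in the list. All 50 members tested had a difference below 0, with a median of -0.99, beside -0.037 over all genes. The median log2 fold change was -0.33 in MOLM-13 and 0.63 in U937. Of the members, 22 rose in U937 and none fell, none was called in MOLM-13, and the difference was called for 5, all lower in MOLM-13. In limma, 33 members had an unadjusted p under 0.05 for a lower difference, as did 1298 of all genes tested (11%), and 1265 (10.7%) had one for a higher difference. RRM2, the small subunit of ribonucleotide reductase, rose from 2730 and 5297 to 20003 and 15298 in U937, beside 4006, 5930 and 4634 against 5845 and 4980 in MOLM-13. CLSPN, the replication checkpoint adaptor claspin, rose from 612 and 1590 to 3381 and 2869, beside 3986, 3717 and 2585 against 2839 and 2430, with a difference of -2.02 that was -1.33 without pLKO replicate 2 of U937. MCM5, a subunit of the helicase, rose from 1089 and 1666 to 3267 and 2552 in U937, and in MOLM-13 its shRNF5 values of 3462 and 2772 lay under the pLKO values of 4248, 5108 and 4232. GINS4, which joins the active helicase, had 341 and 611 rising to 1041 and 1101 in U937 and 1391, 1780 and 1537 against 1303 and 1088 in MOLM-13. MCM2 was the fifth. The fold changes were over 0.4 with opposite signs in 16 members, among them CDC45, CHAF1A, CHAF1B, FEN1, GINS1, GINS2, GINS3, MCM10, MCM3, MCM5, PCNA, RFC3, RFC5, TK1 and TYMS, and all 16 were down in MOLM-13 and up in U937. The U937 controls mattered. Without pLKO replicate 2 the U937 median was 0.28, the median difference -0.62 and no member was called. Over the fits that left out 1 library the median difference stayed between -1.32 and -0.62. In the fit that also held HL-60, 32 members were called lower.

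Sites for E2F, the factor family that drives S phase genes, were sought in RefSeq promoter windows. The CHR element of genes that peak in mitosis was sought there too. The following windows belong to the list members with the most negative differences among those that hold a match. No E2F match was found for RRM2, CLSPN, MCM5 or GINS4, whose differences were more negative, and no CHR match for MYBL2. The windows are from GRCh38.p14, 5′ to 3′ on the strand of the gene, with the match in capitals (TTTGGCGC or TTTCGCGC for E2F, TTTGAA or TTCGAA for CHR, on either strand, and the match nearest the start site where there were several). 
CDC6 (E2F, chr17:40287876-40287903, + strand): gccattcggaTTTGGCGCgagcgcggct
POLA1 (E2F, chrX:24693771-24693798, + strand): tcatcacaggGCGCCAAAcgcgcgtccg
MCM2 (E2F, chr3:127598403-127598430, + strand): gtgaaccactTTTCGCGCgaaacctggt
MCM3 (E2F, chr6:52284729-52284756, - strand): gttcggaagtTTTCGCGCcggggtggag
SPC25 (CHR, chr2:168890418-168890443, - strand): gtgcactaggTTTGAAatcggaaagt
KIF11 (CHR, chr10:92593092-92593117, + strand): ctgtctctttTTCAAAttgaggcgcc
NUSAP1 (CHR, chr15:41332884-41332909, + strand): gcgccagggaTTTGAAccgcgctgac
NCAPG (CHR, chr4:17810934-17810959, + strand): gcgggaattaTTTGAAcgttcgagcg

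A promoter window was found for 43 of the 50 DNA replication genes, 47 of the 53 mitosis genes below, 26 of the 31 proteasome genes and 8602 of the 10385 protein-coding genes tested (82.8%). The E2F letters were in 11 of 43 DNA replication promoters (25.6%), beside 2.33% of the protein-coding genes tested. They were in 4.26% of the mitosis promoters and in no proteasome promoter. The CHR letters were in 35 of 47 mitosis promoters (74.5%), beside 11.1% of the protein-coding genes, 4.65% of the DNA replication promoters and 15.4% of the proteasome promoters. The letters CCAAT were in 60.5%, 74.5% and 53.8% of the 3 sets, beside 37.1%. Matches of one motif on both strands, or of different motifs, can share letters, and each promoter was counted once per motif. These matches describe the sequence and are no evidence of binding. For cholesterol genes a promoter was found for only 19 of 25 (76.0%), so the check is void there.

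Genes for mitosis and chromosome segregation had lower differences too. They build the spindle and kinetochore and separate the chromosomes. The difference was below 0 for 51 of 53 members, with a median of -0.66, and the median log2 fold change was -0.24 in MOLM-13 and 0.54 in U937. In U937 12 rose and 2 fell, beside 14.4% and 13.8% of all genes tested. None was called in MOLM-13, and the difference was called for 2 members, beside 4.25% of all genes in either direction. In limma, 19 had an unadjusted p under 0.05 for a lower difference, beside 11% of all genes. MYBL2, the transcription factor B-MYB that binds with the complex at CHR elements, rose from 2170 and 2978 to 5982 and 4386 in U937 and lay lower in MOLM-13, at 4219, 5028 and 4142 against 3691 and 3061. KIF11, the motor that separates the spindle poles, rose from 2178 and 2589 to 5363 and 4474 in U937, beside 5260, 8725 and 5595 against 6356 and 4285. SPC25, a kinetochore subunit shown for its promoter above, had 434 and 836 against 1439 and 1145 in U937 and 462, 734 and 474 against 446 and 300 in MOLM-13, and its difference of -1.66 was not called (limma adjusted p = 0.102). The median difference stayed between -0.89 and -0.43 when 1 library was left out, the latter without pLKO replicate 2 of MOLM-13. Without pLKO replicate 2 of U937 no member was called.

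Among cyclins, their kinase inhibitors and partners, 10 of 20 members rose and 1 fell in U937 and none was called in MOLM-13. The difference was below 0 for 13 members and above 0 for 7, and it was called for 4, none of them an inhibitor. CCNE1 and CCNE2, the E cyclins that start S phase, both had lower differences. CCNE2 rose from 184 and 311 to 2526 and 1596 in U937, beside 2021, 2348 and 1386 against 2497 and 2209 in MOLM-13, and the difference was -2.74 ± 0.43 (limma adjusted p = 0.0377). CCNE1 went from 58 and 168 to 377 and 311, beside 838, 545 and 453 against 443 and 496. The difference of CCNE1 was -2.12 with all libraries and -1.36 without pLKO replicate 2 of U937, and with each library omitted in turn it was called 1 time in 9. CCND3, a D cyclin, rose from 1956 and 1724 to 10502 and 6567 in U937, and its MOLM-13 libraries moved from 4419, 4815 and 5836 to 6003 and 6294 without a call. E2F2, an activating E2F, rose from 398 and 606 to 1472 and 1171, beside 509, 437 and 407 against 482 and 388. The median difference of the list was -0.51. Without pLKO replicate 2 of U937, 1 of the 20 members was called.

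Proteasome subunits, which degrade ubiquitin-tagged proteins, had lower differences as a group. The difference was below 0 for 30 of 31 members, with a median of -0.83, and the median log2 fold change was -0.23 in MOLM-13 and 0.55 in U937. In U937 17 rose and none fell, none was called in MOLM-13, and the difference was called for 4, with 22 at an unadjusted p under 0.05, beside 11% of all genes. PSMC4, an ATPase of the cap, had 1072 and 1186 with pLKO and 1932 and 1738 with shRNF5 in U937. In MOLM-13 PSMC4 had 2285, 2157 and 2221 with pLKO and 1719 and 1764 with shRNF5, with no overlap in either line. PSMD3, a subunit of the lid, rose from 1169 and 1265 to 2631 and 2240 in U937, beside 3011, 3467 and 3407 against 3303 and 3170. PSMD11 and PSMD2, which also belong to the cap, had differences of -0.96 ± 0.27 and -0.91 ± 0.24. The largest change of the list in either line was 1.12 in U937. Without pLKO replicate 2 of U937 the median difference was -0.60 and no member was called, and in the fit with HL-60 19 members were called lower.

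**Figure D4:**
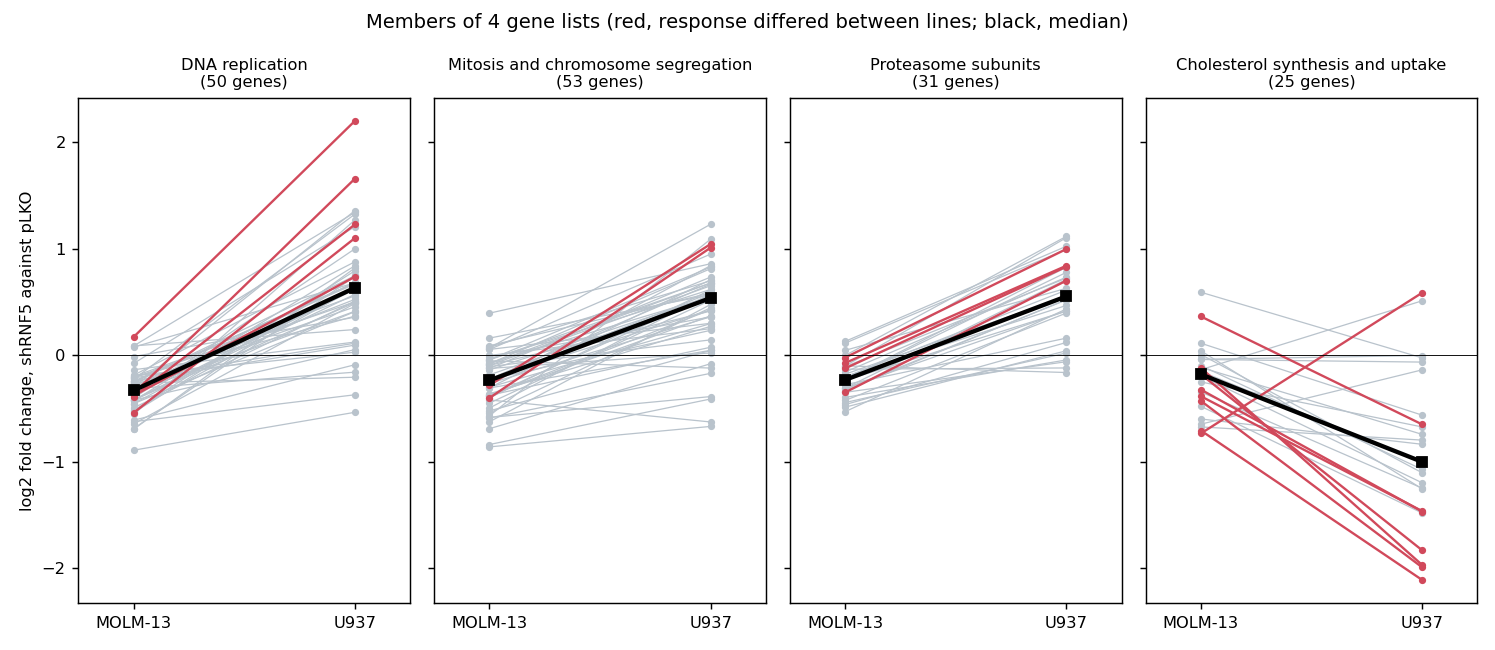
Each line joins the log2 fold change of 1 gene in MOLM-13 to that in U937 for members of the lists of DNA replication, mitosis, proteasome and cholesterol genes, with genes whose response differed in red and the median in black. The medians go from -0.33 to 0.63, from -0.24 to 0.54, from -0.23 to 0.55 and from -0.18 to -1.0.

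Cholesterol genes fell in U937. The list holds enzymes of the mevalonate and sterol pathways, their regulator SREBF2 and uptake genes. Of 25 members 18 fell in U937, none rose, and none was called in MOLM-13, where the log2 fold changes ran from -0.74 to 0.59. The response differed for 8, higher in MOLM-13 for FDFT1, FDPS, HMGCS1, MSMO1, MVD, SREBF2 and STARD4 and lower for LBR. The median log2 fold change was -0.18 in MOLM-13 and -1.0 in U937, and the median difference was 0.90. STARD4, which carries sterol through the cytosol, fell from 5125 and 3155 to 752 and 1394 in U937, beside 919, 1044 and 1245 against 863 and 1105. MSMO1, a sterol methyl oxidase, fell from 6394 and 3917 to 1233 and 1596, beside 1398, 1242 and 1442 against 966 and 1486. For MVD and HMGCS1, both of the mevalonate pathway, the libraries lay lower with shRNF5 in each line. MVD went from 2930 and 2179 to 496 and 809 in U937 and from 1045, 821 and 779 to 581 and 724 in MOLM-13. HMGCS1 went from 8175 and 8246 to 1471 and 2446 and from 3209, 3736 and 3814 to 1850 and 2586. LBR, a sterol reductase that also anchors the nuclear lamina, was the exception, with 7143, 11953 and 12120 against 6045 and 6097 in MOLM-13 and 7396 and 9822 against 12590 and 12999 in U937. In the list of fatty acid synthesis, ACSS2, which makes acetyl-CoA from acetate, fell from 5167 and 2517 to 462 and 693 in U937 beside 754, 420 and 569 against 460 and 598, and it was the 1 of 14 members called. That list had 6 members down in U937 and a median difference of 0.59. No member of either list was called without pLKO replicate 2 of U937, where their median differences were 0.80 and 0.55. The fatty acid median was 0.34 without pLKO replicate 1 of MOLM-13. In the cholesterol, DNA replication, mitosis and proteasome lists no member was called either without pLKO replicate 2 of MOLM-13, without either of its shRNF5 libraries or without shRNF5 replicate 1 of U937. Without pLKO replicate 3 of U937, 13 cholesterol genes were called higher and 2 lower in MOLM-13, and 37, 17 and 21 members of the other lists in turn were called lower.

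Myeloid effector genes went both ways. Of 27 monocyte and macrophage genes tested, 10 rose and 1 fell in U937, 1 rose and 1 fell in MOLM-13, and the difference was called for 6, all lower in MOLM-13. These were S100A8, S100A9 and LSP1 from above, and CD36, CX3CR1 and EMR2. CD36, a scavenger receptor for oxidized lipids, was the 1 gene with a different response that was called in the same direction in both lines. It rose from 811, 563 and 763 to 1344 and 1950 in MOLM-13 and from 854 and 1063 to 9966 and 6610 in U937, log2 fold changes of 1.2 ± 0.25 and 3.09 ± 0.27. CX3CR1, the fractalkine receptor, had 505, 643 and 733 against 400 and 461 in MOLM-13 and 42 and 36 against 82 and 101 in U937. The median difference of the list was -0.37, and it ran from -0.73 without shRNF5 replicate 2 of MOLM-13 to -0.14 without replicate 1. In 6 members, CCR2, CX3CR1, LILRB2, LSP1, S100A8 and S100A9, the fold changes were over 0.4, down in MOLM-13 and up in U937. Primary granule proteins had a median difference of 0.72 over 13 members, 9 of them above 0 and 4 below 0. In U937 6 fell and 2 rose, beside 13.8% and 14.4% of all genes tested. None was called in MOLM-13, where the median log2 fold change was 0.042. Without pLKO replicate 3 of U937 the median difference was 0.44 and the median in U937 went from -0.23 to 0.033. AZU1, the antimicrobial protein azurocidin, fell from 12516 and 13539 to 1749 and 3267 in U937, while MOLM-13 overlapped at 29768, 21186 and 21267 against 26122 and 26413. Its difference was 2.59 ± 0.37 (limma adjusted p = 0.0267). ELANE, neutrophil elastase, fell from 9166 and 11149 to 5780 and 4077, beside 16453, 15332 and 14000 against 15794 and 15571. Without pLKO replicate 2 of U937, 1 of the 13 granule genes and 1 of the 27 monocyte genes were called.

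HOXA genes, homeobox factors that are expressed in immature myeloid cells, fell in U937. Of 13 members 7 fell there and none rose, none was called in MOLM-13, and the median difference was 0.97. HOXA9 fell from 6540 and 4776 to 1918 and 2099, beside 2169, 1849 and 2334 against 2119 and 2590 in MOLM-13, and it alone was called for the difference, at 1.63 ± 0.28 (limma adjusted p = 0.0567). HOXA4, with a difference of 2.97, and HOXA3, with 1.82, had fold changes over 0.4 and opposite signs but just missed the threshold (limma adjusted p = 0.104 and 0.107). The U937 pLKO values of HOXA4 were 133 and 36. Among 18 other myeloid transcription factors, GATA2, a factor of progenitors, fell from 134 and 102 to 40 and 60 in U937, and the MOLM-13 values were 232, 220 and 248 against 311 and 324. IKZF1, the lymphoid and myeloid factor Ikaros, rose from 2110 and 1700 to 6423 and 4146, beside 6930, 10020 and 8082 against 9621 and 7967. Their differences were 1.68 ± 0.40 and -1.36 ± 0.33. In the list of MHC antigen presentation, CIITA was the 1 of 16 members called, and 8 fell in U937 with 1 down in MOLM-13. The HOXA median was 0.59 without pLKO replicate 2 of U937, and no member of the 3 lists was then called.

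Signalling and stress lists held a few genes each. Of all genes tested, 14.4% rose and 13.8% fell in U937. The counts below for NF-κB, the ATF4 response and the unfolded protein response lie near or under those shares. The difference was called for 4.25% of all genes tested. The 1 called member in each of the interferon, p53 and ATF4 lists lies under that share. Of the AP-1 and immediate early genes 9 of 31 rose and 1 fell in U937 and 1 rose in MOLM-13, and FOSL1 and DUSP5 differed. FOSL1, an AP-1 subunit, rose from 19 and 63 to 315 and 292 in U937, and its MOLM-13 values were 418, 382 and 402 against 689 and 743. Its difference was -2.25 with all libraries and -1.41 without pLKO replicate 2 of U937. DUSP5, a phosphatase of ERK, rose from 161 and 200 to 456 and 596, beside 114, 144 and 123 against 140 and 149. Of 23 NF-κB subunits and targets, 4 rose in U937, and TNF and IL8 differed. IL8 (CXCL8), a neutrophil chemokine, rose from 112 and 82 to 1110 and 451, beside 47, 22 and 64 against 16 and 52. Interferon-stimulated genes had 2 up and 8 down of 33 in U937, and STAT2, a subunit of the interferon-activated factor, was called, with 2943 and 1810 against 839 and 1019 in U937 and 1845, 1129 and 2093 against 1800 and 2309 in MOLM-13. GADD45A, a growth arrest gene, was the 1 of 24 p53 targets called, falling from 431 and 301 to 84 and 97 beside 576, 416 and 494 against 439 and 443. Of 28 genes of the ATF4 amino acid response 2 rose and 4 fell in U937, with a median log2 fold change of -0.17 there and -0.51 in MOLM-13. SLC7A5, the large neutral amino acid transporter and the member called for the difference, rose from 1922 and 2913 to 6586 and 5820 in U937, and its MOLM-13 values of 7219, 8485 and 13774 lay above 6965 and 5399. Of 28 genes of the unfolded protein response 3 rose and 2 fell in U937, the median log2 fold change there was 0.26 and 18 differences were below 0, with a median of -0.31 that was -0.097 without shRNF5 replicate 1 of U937. The 2 called differences were above 0. ERN1, the ER stress sensor IRE1, fell from 1657 and 923 to 402 and 511 with 545, 377 and 479 against 629 and 550 in MOLM-13. ERO1LB, an oxidase of the ER, fell from 1297 and 842 to 210 and 265 and lay at 1366, 1118 and 1160 against 783 and 825. Among 17 BCL2 family genes HRK, which promotes apoptosis, rose from 0 and 5 to 23 and 20, beside 120, 139 and 254 against 121 and 114. Its difference was -3.66 with all libraries and -2.36 without pLKO replicate 2 of U937, where HRK was listed at 0.

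Metabolic and cytoskeletal genes were called mostly in U937. Of 24 genes for glycolysis and lactate transport 9 rose and 1 fell there, 22 had a difference below 0, and the median difference was -0.50. With 1 library left out this median ran from -0.63 to -0.44. SLC2A1, the glucose transporter GLUT1, rose from 363 and 436 to 1617 and 1142, beside 889, 883 and 797 against 1186 and 1182, which was not called in MOLM-13. LDHA, lactate dehydrogenase A, rose from 4524 and 7350 to 11092 and 11699, beside 18704, 19318 and 15747 against 15584 and 14346. Of 47 genes of the actin cytoskeleton and its regulators 22 rose and 4 fell in U937 and 1 rose in MOLM-13. CORO1A, a coronin of leukocytes, rose from 4210 and 6227 to 13383 and 11961 with 7707, 5407 and 7224 against 4599 and 5858 in MOLM-13. MSN, the membrane linker moesin, rose from 13713 and 19036 to 55739 and 43826, and its MOLM-13 values moved from 27965, 29303 and 30715 to 34031 and 35456 without a call. SSH3, a slingshot phosphatase, and TPM4, a tropomyosin, had log2 fold changes of 1.79 and 1.26 in U937 and of 0.59 and 0.44 in MOLM-13. Among 15 replacement and polyadenylated histone genes, H2AFZ and H2AFV rose in U937 and H2AFX fell in MOLM-13. The median difference of this list was -0.15 with all libraries and 0.44 without pLKO replicate 2 of U937. H2AFZ had 4108 and 7698 against 10609 and 9896 in U937 and 10042, 12097 and 10160 against 8145 and 6806 in MOLM-13. H2AFV had 1722 and 3016 against 5270 and 5254 and 3471, 4003 and 3428 against 3919 and 3529, with a difference of -1.17 that was -0.77 without pLKO replicate 2 of U937. HIST2H2BE had a difference of 3.02 ± 0.84 with neither line called, from 19, 8 and 33 to 49 and 90 in MOLM-13 and from 150 and 84 to 39 and 65 in U937, and its reads may be shared with near-identical histone genes.

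In 7 lists limma called no difference. For these, the counts at an unadjusted p under 0.05, which 10.7% of all genes had for a higher and 11% for a lower difference, were 2 higher and 2 lower of 30 ER-associated degradation genes, 3 lower of 9 NADPH oxidase subunits, 2 lower of 21 integrin and adhesion genes and 1 lower of 7 annexins. They were 1 higher and 3 lower of 26 subunits of histone deacetylase complexes and PRC2, 8 higher of 76 cytosolic ribosomal proteins and 2 higher and 2 lower of 64 respiratory chain subunits. In U937 30 of the 76 ribosomal proteins fell and none rose, and the median log2 fold change was -0.44 in U937 and -0.10 in MOLM-13. RPS20 had 13776 and 11750 against 6181 and 5886 in U937 and 36352, 30199 and 27436 against 27276 and 25474 in MOLM-13. RPL13A, whose reads may be shared with near-identical pseudogenes, had 33385 and 31508 against 16378 and 14627 and 121493, 72135 and 67307 against 69186 and 69132. VCP, the ATPase that extracts proteins from the ER, had a difference of -0.90, and SYVN1, a ligase of the same pathway, had 0.86 (limma adjusted p = 0.118 and 0.115). Differences of single members of the other lists were ITGAX at 1.41, ANXA1 at -1.03, ANXA6 at -0.45, EZH1 at 1.0, SAP30 at -0.95, NDUFV2 at 1.54 and UQCRQ at -0.84, with limma adjusted p-values from 0.102 for SAP30 to 0.492 for ITGAX.

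**Figure D5:**
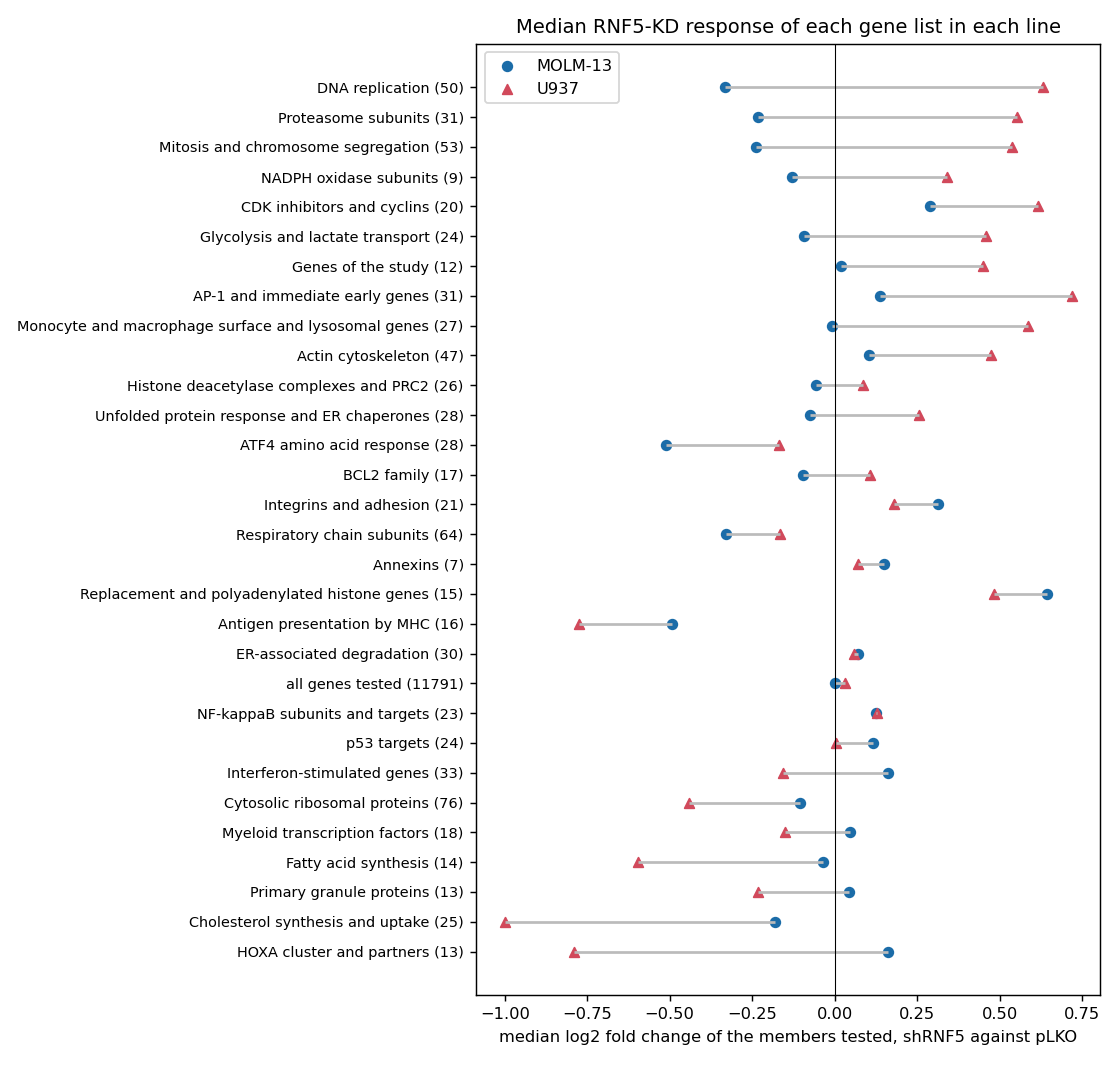
The median log2 fold change of shRNF5 over pLKO is shown for the members of each gene list in MOLM-13 (circles) and U937 (triangles), with the number of genes in parentheses and lists ordered by their median difference. DNA replication, proteasome and mitosis genes lie at the top with opposite signs, HOXA and cholesterol genes at the bottom, and all genes tested lie near 0.

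The genes that the study took up from its RNA-seq or its mechanism were not called for a difference. CDKN1A, CDKN2D, ANXA1, LIMK1, NCF1, BCL2A1 and SAP18 among them were chosen by the study on these samples, so their directions are not independent evidence. For the 12 of them limma called 0 differences, and 3 had an unadjusted p under 0.05. CDKN1A, the CDK inhibitor p21, rose from 201 and 115 to 1057 and 744 in U937, and in MOLM-13 its values of 4671, 4468 and 6899 with pLKO lay below 10758 and 15509 with shRNF5 (limma adjusted p = 0.105). The difference for CDKN1A was -1.24, with a 95% confidence interval from -2.17 to -0.30. ANXA1, an inhibitor of phospholipase, rose from 885, 728 and 633 to 1488 and 1792 in MOLM-13 and from 502 and 820 to 2608 and 3200 in U937. SAP18, a subunit of the Sin3 deacetylase complex, fell from 4517, 4298 and 4009 to 1737 and 1887 and from 1343 and 1675 to 721 and 768, with a difference of -0.23. CDKN2D had 226, 173 and 333 against 497 and 544 and 388 and 338 against 664 and 717. LIMK1, a kinase of cofilin, had 579, 470 and 453 against 833 and 922 and 760 and 676 against 1631 and 1379. BCL2A1 had 74, 59 and 100 against 20 and 38 and 3046 and 1319 against 1138 and 864. NCF1, an oxidase subunit whose reads may be shared with near-identical copies, had 232, 196 and 564 against 545 and 1060 and 24 and 27 against 176 and 137. For these 4 genes the differences were 0.21 for CDKN2D, -0.25 for LIMK1, -0.41 for BCL2A1 and -1.20 for NCF1. Among the chromatin factors, RBBP4, EZH2, HDAC1 and HDAC2 had differences of -0.32, -0.45, -0.43 and -0.53, with limma adjusted p-values from 0.191 to 0.418. RBBP4 overlapped in MOLM-13, at 6930, 7981 and 6745 against 7382 and 6584, and had 6225 and 7029 against 8020 and 8028 in U937. A p that misses the threshold does not show equal responses, since the median SE of a difference was 0.35 over all genes.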

How the data were processed

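RNA-seq of MOLM-13 and U937 cells with pLKO or shRNF5 was used, 9 libraries in all, grouped by the title of each sample. The deposited values are a score for this purpose: normalized read counts that the authors rounded to whole numbers and in which weakly expressed genes are at 0. Per the labels and the study's methods, the authors trimmed reads with CUTADAPT, aligned them to hg19 with STAR, counted them with featureCounts of Subread and normalized them with edgeR through SARTools, in each line separately. The labels name a 3′ tag library kit and the study's methods a directional poly(A) kit, so a 3′ tag and a whole-transcript count cannot be told apart here. Because the values are not raw counts, no count model was used. Reads per library were inferred from the steps between low values.

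Values were taken as log2(value + 1), and genes above 0 in at least 1 library of each line were tested with limma 3.58.1 in R 4.3.3, with 1 coefficient per group and a mean-variance trend. Fold changes are on this scale, which understates the change of weakly expressed genes. A call needed a Benjamini-Hochberg adjusted p under 0.1 and an absolute log2 value over 0.4. Genes were named by rule: RNF5, the genes of the study, up to 5 genes per class of response with the largest difference, a mean of at least 50 in a group of each line and libraries apart in each line called, and up to 4 called genes (or 2 where none was called) per gene list. CXorf21, LBR, CX3CR1, SPC25, HOXA3, HOXA4, the genes of opposite direction with HL-60 and the examples of the wider reading lie outside this rule and were chosen after their values were seen, and some genes that the rule gives are not reported here. The members, gene lists and tests were chosen with earlier results of these data known. The wider definition of opposite responses, the lists' values without each library and the proteasome promoters were added after seeing the data. Promoter windows are RefSeq's on GRCh38.p14. The fit was tested on simulated data for the difference between the lines over 11791 genes. There, 13.6% of changes of 1 on the log2 scale, 67.2% of changes of 2 and 88.1% of changes of 3 were recovered. Of the calls in the simulated data, 9.6% were false. These rates describe the simulated libraries only. The share of false calls among the genes called in the real libraries, whose number moved with single libraries, was not tested. Alternatives covered the pseudocount, filters, threshold, variance model, library weights, rescaling, transcript length, replicate terms, HL-60 libraries and each library left out in turn.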

Additional observations from a re-analysis of the deposited data

Results flagged for a closer look

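The response to shRNF5 differed between MOLM-13 and U937 for 501 genes by the test of the difference itself, and 63 of the 85 genes named by rule and reported here were among them. The differences, on the log2 scale, were above 0 for CKB (3.91), SRGAP3 (3.62), CIITA (3.46), SAMD11 (3.46), BTBD11 (3.29), HIST2H2BE (3.02), AZU1 (2.59), ACSS2 (2.56), C1orf21 (2.37), CERCAM (2.36), ZFHX3 (2.31), COL4A2 (2.13), SEMA6A (2.05), SNTB2 (2.02), STARD4 (1.85), GADD45A (1.83), ERN1 (1.79), GATA2 (1.68), MSMO1 (1.65), STAT2 (1.64), HOXA9 (1.63), MVD (1.56), ERO1LB (1.55), HMGCS1 (1.40) and ELANE (1.1). They were below 0 for S100A8 (-4.56), GPR84 (-4.53), S100A9 (-4.4), TNF (-3.82), HRK (-3.66), LSP1 (-3.36), IL8 (-3.34), CCNE2 (-2.74), FOSL1 (-2.25), NFATC2 (-2.13), CCNE1 (-2.12), RRM2 (-2.03), CLSPN (-2.02), SLC7A5 (-2.01), CD36 (-1.89), CCND3 (-1.88), SLC38A1 (-1.77) and CORO1A (-1.67). Smaller differences below 0 were those of MCM5 (-1.64), GINS4 (-1.62), DTX4 (-1.48), E2F2 (-1.47), MYBL2 (-1.41), H2AFZ (-1.39), MSN (-1.37), IKZF1 (-1.36), DUSP5 (-1.34), KIF11 (-1.33), H2AFX (-1.31), SLC2A1 (-1.30), LDHA (-1.24), SSH3 (-1.21), H2AFV (-1.17), PSMC4 (-1.05), PSMD3 (-1.02), PSMD11 (-0.956), PSMD2 (-0.914) and TPM4 (-0.825). No group held the 4 libraries that a test for a library standing apart needs, so none was made.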

How the results depend on the processing

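The counts below give, in order, genes whose response differed, genes of opposite direction, genes called in MOLM-13 only and genes called in U937 only, which were 501, 2, 10 and 465 as reported. An adjusted p under 0.05 gave 19, 0, 1 and 18. Fitting all 15 libraries, with HL-60, gave 1708, 12, 52 and 1465, library weights gave 1365, 71, 270 and 818, and no filter beyond the authors' gave 893, 1, 52 and 809. Without a mean-variance trend 217 genes differed, 1 in opposite directions and 203 in U937 only, and quantile normalization gave 20 in MOLM-13 only. Leaving out 1 library at a time, the counts ran from 2 to 2930, from 0 to 21, from 0 to 73 and from 2 to 2473. All 501 genes kept their sign in each alternative that tested them, which their selection in the same libraries largely set in advance. The cause of these moves was not tested, beyond the fewer or additional libraries, genes or thresholds that define them. The difference of RNF5 ran from -0.47 to 0.21 over these fits and was above 0 without pLKO replicate 2 of U937 (0.060) and without shRNF5 replicate 3 of U937 (0.21). That of CDKN2D ran from -0.0082 to 0.46, with the lowest value without pLKO replicate 2 of MOLM-13. That of BCL2A1 ran from -1.01 to 0.19 and was above 0 without shRNF5 replicate 1 of MOLM-13 (0.035) and without pLKO replicate 3 of U937 (0.19). None of these 3 differences was called as reported. The deviations of samples with the same replicate number correlated at -0.12 for replicate 1 and -0.46 for replicate 2 in MOLM-13. For replicate 3 in U937 the correlation was 0.28. Deviations within a group of 2 libraries mirror each other, so these values cannot settle whether samples of 1 number were handled together. With a replicate block within MOLM-13 the counts were 4, 0, 0 and 4, and with a replicate block within both lines 31 genes differed, 4 in opposite directions and 15 in U937 only.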
